A study of Mus musculus with 8 samples.

Results

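The 43 genes described here are those that the authors' deposited expression table annotates with the KEGG pathway of aminoacyl-tRNA biosynthesis in the mouse. They are 43 of the 22481 genes of that table. The rule that picks them uses the annotation and no measured value, but the pathway itself was chosen with earlier results of these libraries known. The genes divide by symbol into 20 cytosolic synthetases, 18 synthetases whose symbol ends in 2, which are called mitochondrial here, and 5 enzymes that act on the amino acid once it is on the tRNA. The division is by name. Tarsl2, a threonyl-tRNA synthetase-like protein, falls among the 18 although its product is cytosolic, and Kars and Gars serve both compartments from a single gene. RNA was measured by RNA sequencing in liver samples of db/db mice (4) and lean mice (4), for work on fatty liver disease that is not caused by alcohol. The db/db mouse lacks a working long form of the leptin receptor and becomes obese and diabetic. All 8 samples are labelled male, and the mice had free access to food. The lean samples carry the strain label C57BL/6. For the other samples the label gives only db/db, so their background strain is unknown here, as is the age of the mice. No label names the animal behind a sample. The p-values therefore rest on sample-to-sample spread, part of which may be technical.

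Aminoacyl-tRNA synthetases attach each amino acid to its tRNA, using ATP, and so set which amino acid a codon is read as. Cells keep separate sets for translation in the cytosol and in mitochondria, both encoded in the nucleus. The enzymes fall into 2 unrelated fold classes, class I and class II. In animals several cytosolic synthetases are bound together in the multisynthetase complex. Liver makes most plasma proteins and uses these enzymes heavily. When tRNAs are left uncharged, the kinase GCN2 (gene Eif2ak4) phosphorylates the initiation factor eIF2. The transcription factor ATF4 is then made in larger amounts and is known to switch on many cytosolic synthetase genes.

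Estimated fragments in the rows of the table numbered 13157724 to 16171661 in db/db libraries and 12174824 to 14978545 in lean libraries. Log2 values correlated across genes, which are not replicates, at 0.975 to 0.989 among db/db samples, at 0.980 to 0.988 among lean samples and at 0.932 to 0.951 across the groups. All 6 hepatocyte markers were detected, and 2 of them, Apoa1 and Ttr, which encode secreted plasma proteins, were lower in db/db. Apob, Tat, Cps1 and Serpinc1 were not called. Apoa1 averaged 981.7 FPKM in db/db and 15010 FPKM in lean (log2 difference -3.97, limma adjusted p = 1.09e-06). Summed hepatocyte markers lay at 7935 to 9955 FPKM in db/db and at 23950 to 29930 FPKM in lean. Of the markers of other cells that could be tested, limma called 3 of 9 for Kupffer cells and 2 of 7 for endothelium lower in db/db. It also called 1 of 6 for stellate cells and the pancreas enzyme Cela1 lower. Voom called 2 for Kupffer cells, 3 for endothelium, 1 for stellate cells and Cela1 lower, and 0 were higher by limma or voom. Of all genes tested, limma called 10.9% lower and voom 11.4%. At an unadjusted p under 0.05 in limma, 1 endothelial marker was higher, where 4216 of all 10943 genes tested passed in either direction. Summed endothelial markers lay at 65.6 to 70.7 FPKM in db/db and at 82.2 to 101.5 FPKM in lean. Those of Kupffer cells lay at 133.7 to 192.7 FPKM in db/db and at 187.7 to 292.7 FPKM in lean. Summed pancreas markers lay at 1.82 to 2.62 FPKM in db/db and at 14.6 to 20.4 FPKM in lean, with Cpa1, Prss1 and Pnlip at 0 in all 8 samples. The part of these markers in the results on synthetases was not tested. In whole liver, fewer cells of a type and less RNA per cell cannot be told apart.

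Few aminoacyl-tRNA synthesis genes were called different between db/db and lean liver. All 43 passed the filter of at least 0.5 FPKM (fragments per kilobase of transcript, with a scaling for library size) in at least 4 of the 8 samples. By limma on log2(FPKM + 1), with an adjusted p under 0.05 over all 10943 genes tested, 1 gene rose in db/db, Qars and Vars2 fell, and 40 were not called. The 3 calls are 6.98% of the 43 genes, while 26.4% of all genes tested were called. By direction, 1 of 43 was higher against 15.5% of all genes, and 2 of 43 were lower against 10.9% of all genes. Before adjustment 10 of the 43 had p under 0.05, 7 higher and 3 lower, against 4216 of all 10943 genes tested in either direction. The log2 differences, db/db minus lean, had a median of 0.039, against a median of 0.041 over all genes tested. The median was 0.016 for the cytosolic synthetases, 0.078 for the mitochondrial synthetases and 0.19 for the 5 tRNA-modifying enzymes.

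The intervals of these differences limit how far a gene without a call can have moved. For 42 of 43 genes (97.7%) the 95% interval of the log2(FPKM + 1) difference lay within a 2-fold change in either direction, as for 84.0% of all genes tested. For 30 of 43 (69.8%) it lay within a 1.5-fold change, against 49.9% of all genes. This scale understates the change of low genes. With voom, which models the estimated fragments themselves, 40 of 43 intervals (93.0%) lay within 2-fold and 27 (62.8%) within 1.5-fold, against 69.6% and 35.6% of all genes. Those of Aars2 and Mars2 were among the ones that reached further than 2-fold.

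**Figure D1:**
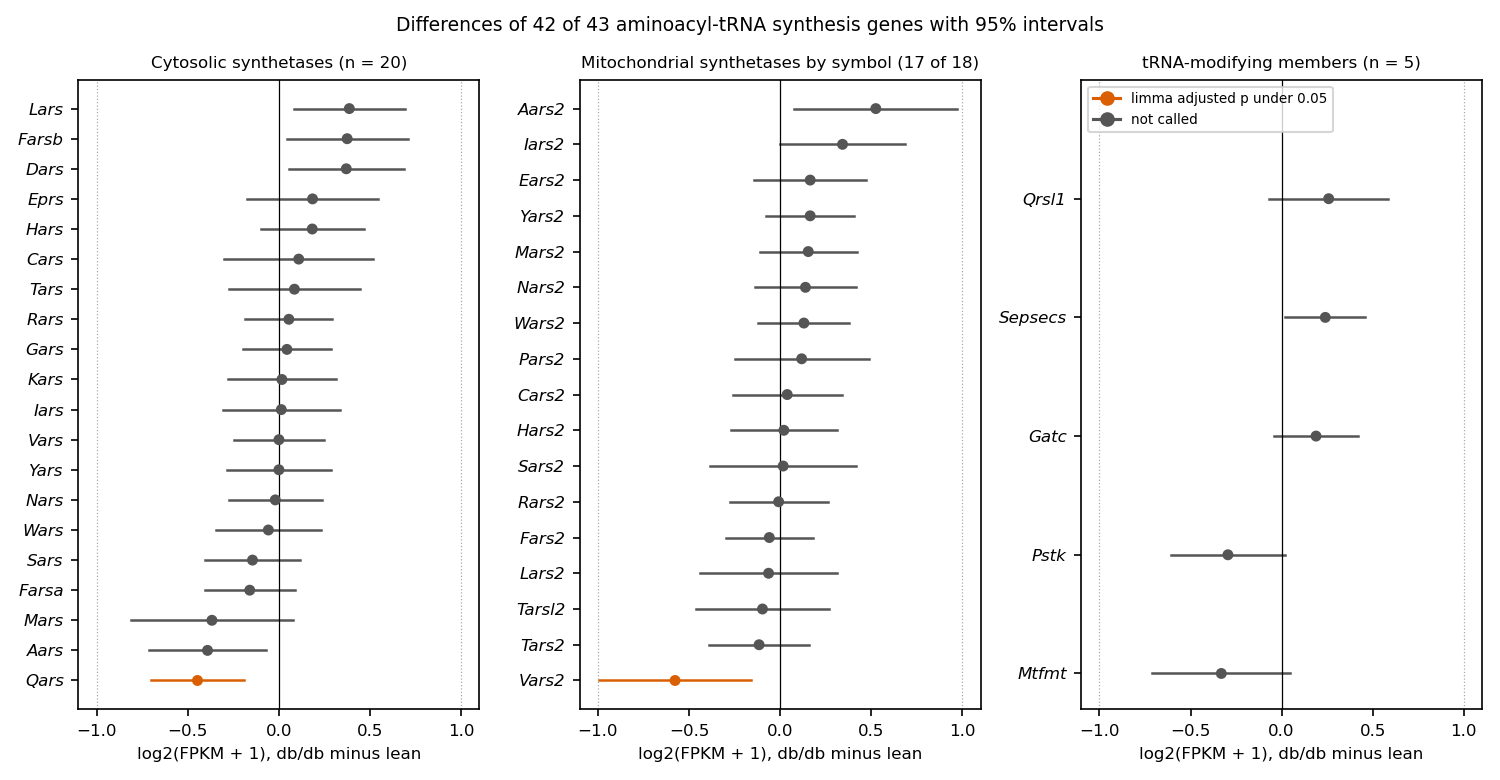
Difference in log2(FPKM + 1) between db/db and lean liver for 42 of the 43 genes (x axis, db/db minus lean), with 95% intervals from limma, n = 4 samples a group. Orange marks an adjusted p under 0.05 and dotted lines a 2-fold change. Qars and Vars2 are called to the left of 0.

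Mitochondrial synthetases charge the tRNAs that mitochondria themselves encode, for the translation of respiratory chain subunits. Of the 18, 1 rose and 1 fell (Vars2) by limma. With voom 3 rose, Iars2 and Nars2 among them, and 0 fell. Limma called 15.5% of all tested genes higher and 10.9% lower, and voom 17.7% higher and 11.4% lower. At an unadjusted p under 0.05 limma had 3 of the 18 higher and 1 lower, against 4216 of all 10943 tested genes in either direction.

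Vars2, the mitochondrial valyl-tRNA synthetase (ENSMUSG00000038838, mm10 chromosome 17, 35655633 to 35667592, minus strand), had 3.21, 3.25, 4.595 and 3.63 FPKM in db/db samples, against 5.601, 5.51, 9.01 and 4.32 FPKM in lean samples. The groups overlapped: db/db 3 lay above lean 4. The log2 difference was -0.58 (SE 0.19, limma adjusted p = 0.0449). It was called in 10 of 20 alternatives and not without db/db 1, 2 or 4 (limma adjusted p = 0.0955, 0.1039 and 0.0892) and without lean 1, 2 or 3 (limma adjusted p = 0.0769, 0.0703 and 0.0838). With voom the log2 difference was -0.35 (adjusted p = 0.0746), and the normalized fragments of Vars2 did not overlap, at 167.6 to 181.9 in db/db, against 204.2 to 270.3 in lean.

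Iars2 and Nars2, the mitochondrial isoleucyl- and asparaginyl-tRNA synthetases, were called by the fragment measure and not by FPKM. Iars2 (ENSMUSG00000026618, chromosome 1, 185204167 to 185329396, minus strand, at a locus shared with Rab3gap2) had 15.8, 13.1, 15.5 and 12.7 FPKM in db/db samples, against 14.1, 11.2, 11.2 and 8.15 FPKM in lean samples, which overlap. Its log2 difference in FPKM was 0.34 (limma adjusted p = 0.129). Its normalized fragments were 1333, 1010, 1086 and 1102 in db/db, all above the 753.6, 729.3, 717.6 and 750.1 in lean, with a log2 difference of 0.61 (voom adjusted p = 0.0016). Nars2 (ENSMUSG00000018995, chromosome 7, 96947577 to 97064761, plus strand) had 9.20, 6.92, 6.26 and 7.02 FPKM in db/db, against 6.40, 6.85, 6.33 and 6.52 FPKM in lean. Its normalized fragments were 432.8, 301.0, 318.5 and 325.3 in db/db, all above the 265.5, 266.8, 232.7 and 254.4 in lean. The log2 difference was 0.14 in FPKM (limma adjusted p = 0.447) and 0.43 in fragments (voom adjusted p = 0.0406).

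By neither measure were 14 of the mitochondrial synthetases called. Their log2 differences in FPKM ranged from -0.12 for Tars2, which charges threonine, to 0.53 for Aars2, which charges alanine. Aars2 had 1.97, 2.75, 3.302 and 2.43 FPKM in db/db, against 2.003, 1.61, 0.642 and 1.97 FPKM in lean (limma adjusted p = 0.0814), with db/db 1 inside the lean range. Fars2 and Lars2, which charge phenylalanine and leucine and had the highest mitochondrial levels, were at 17.95 ± 1.09 and 17.7 ± 3.21 FPKM in db/db and at 18.8 ± 2.12 and 18.6 ± 3.63 FPKM in lean (log2 differences -0.060 and -0.064). The low values rest on few fragments: Aars2 had 128 to 179 estimated fragments in db/db and 33 to 119 in lean, Mars2 had 34 to 46 in db/db, against 16 to 39 in lean, and Pars2 had 24 to 44 in db/db, against 22 to 41 in lean.

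**Figure D2:**
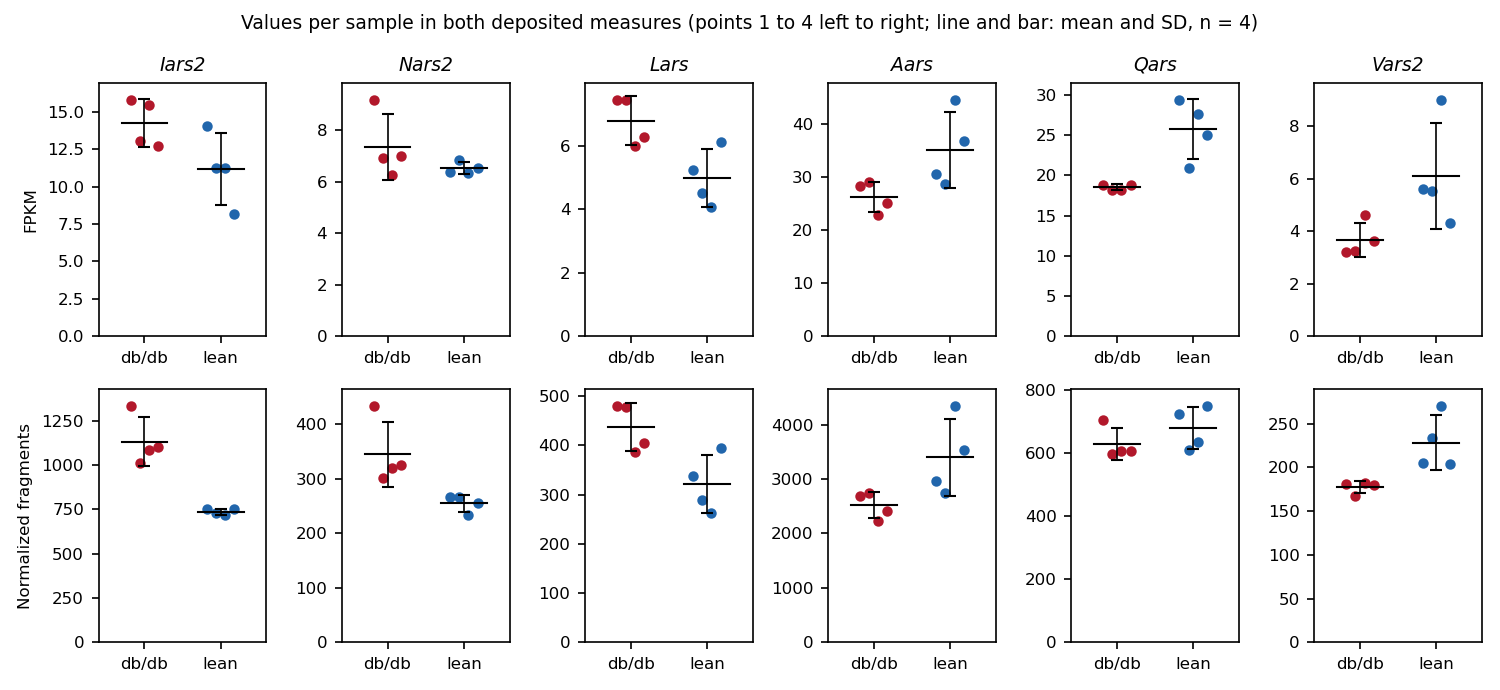
FPKM (top row, y axis) and normalized fragments (bottom row, y axis) of 6 genes in each db/db and lean sample. Points are samples 1 to 4 from left to right, the line is the mean and the bar the SD (n = 4). The groups are apart for Iars2, Nars2, Aars and Vars2 in the bottom row and for Qars in the top row. Those of Aars nearly touch, at 2748 in db/db 2 and 2751 in lean 2.

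Cytosolic synthetases serve the bulk of protein synthesis. Among the 20, 1 fell (Qars) and 0 rose by limma. At an unadjusted p under 0.05, 3 were higher (Lars, Farsb and Dars) and 2 lower (Qars and Aars), against 4216 of all 10943 tested genes in either direction. Voom called 1 of the 20 higher (Lars) and 0 lower. Of all tested genes limma called 15.5% higher and 10.9% lower, and voom 17.7% higher and 11.4% lower. The 5 synthetases with the highest mean FPKM were cytosolic and were not called. Nars, which charges asparagine, had 40.9, 36.7, 34.2 and 37.7 FPKM in db/db, against 38.7, 34.2, 34.1 and 45.3 FPKM in lean (log2 difference -0.019, limma adjusted p = 0.922). Tars, which charges threonine, had 40.0, 33.5, 29.4 and 38.7 FPKM in db/db, against 29.3, 30.9, 28.6 and 46.0 FPKM in lean (log2 difference 0.086, limma adjusted p = 0.732). In both genes the lean range reached above the db/db range, through lean 4.

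Mars, which charges methionine for initiation and elongation, had 19.3, 33.9, 34.8 and 30.1 FPKM in db/db, against 40.9, 32.7, 48.3 and 30.2 FPKM in lean (log2 difference -0.37, limma adjusted p = 0.205). Its locus is shared with Ddit3, a stress gene, so its level is uncertain. Dars, the cytosolic aspartate enzyme, had 43.7, 35.6, 32.1 and 38.7 FPKM in db/db, against 24.7, 31.8, 24.6 and 34.8 FPKM in lean, with overlap at db/db 3 and lean 4 (log2 difference 0.37, limma adjusted p = 0.0795). Aars, which charges alanine, had 28.2, 29.0, 22.9 and 25.2 FPKM in db/db, against 30.7, 28.7, 44.6 and 36.7 FPKM in lean. Its ranges touched at db/db 2 and lean 2 (log2 difference -0.39, SE 0.15, limma adjusted p = 0.0723). Leaving out lean 2 gave a call for Aars (limma adjusted p = 0.044), and leaving out lean 4 gave calls for Dars (limma adjusted p = 0.0414), Farsb (limma adjusted p = 0.0461) and Lars (limma adjusted p = 0.0321). Farsb, the beta subunit of phenylalanyl-tRNA synthetase, shares its locus with Sgpp2 and had a log2 difference of 0.38 (limma adjusted p = 0.0911).

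Qars, the glutaminyl-tRNA synthetase (ENSMUSG00000032604, chromosome 9, 108508004 to 108515941, plus strand), has no mitochondrial counterpart, since mitochondria make glutaminyl-tRNA from glutamyl-tRNA. It had 18.8, 18.2, 18.2 and 18.9 FPKM in db/db, against 29.4, 20.9, 27.7 and 25.0 FPKM in lean. The db/db samples lay close together and below every lean sample, at 18.5 ± 0.392 FPKM in db/db and 25.8 ± 3.71 FPKM in lean (SD, n = 4 each; log2 difference -0.45, SE 0.12, limma adjusted p = 0.0167). It was called in 17 of 20 alternatives and not without lean 1 (limma adjusted p = 0.0534). The fragment measure gave no call either. Normalized fragments of Qars were 702.3, 595.2, 604.2 and 606.1 in db/db, against 723.7, 610.3, 635.0 and 747.9 in lean. These overlap, with a log2 difference of -0.11 (voom adjusted p = 0.463).

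Lars, the leucyl-tRNA synthetase (ENSMUSG00000024493, chromosome 18, 42202348 to 42262122, minus strand), is also known as a leucine sensor for the growth kinase mTORC1. It had 7.46, 7.45, 5.98 and 6.27 FPKM in db/db, against 5.22, 4.50, 4.07 and 6.13 FPKM in lean. Only lean 4 reached into the db/db range (log2 difference 0.39, SE 0.14, limma adjusted p = 0.0607). With voom the log2 difference was 0.45 (adjusted p = 0.0359). Lars and Qars belong to the 8 synthetase genes of the multisynthetase complex. Of these, 0 rose and 1 fell by limma, and 1 rose and 0 fell with voom. At an unadjusted p under 0.05 in limma, 2 were higher and 1 lower. By fold class, 0 of 18 class I genes rose and 2 fell (Qars and Vars2) by limma. Voom called 2 of them higher (Lars and Iars2) and 0 lower. At an unadjusted p under 0.05, limma had 2 class I genes higher and 2 lower. Of 19 class II genes, 1 rose and 0 fell by limma, and 2 rose and 0 fell with voom. Over all tested genes limma called 15.5% higher and 10.9% lower, and voom called 17.7% higher and 11.4% lower. Of the 10943 genes tested, 4216 had an unadjusted p under 0.05 by limma, in either direction. Eprs, which joins a class I and a class II enzyme in a single protein, had 27.1 ± 6.26 FPKM in db/db and 23.4 ± 3.50 FPKM in lean (limma adjusted p = 0.433). Of the remaining cytosolic genes, Cars, Farsa, Hars, Kars, Rars, Sars and Wars had log2 differences from -0.16 for Farsa, the alpha subunit of phenylalanyl-tRNA synthetase, to 0.18 for Hars, the histidine enzyme, whose locus overlaps that of Hars2. Kars, which charges lysine in both compartments, had 26.8 ± 3.33 FPKM in db/db and 26.5 ± 4.08 FPKM in lean (log2 difference 0.017, limma adjusted p = 0.938).

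The 5 enzymes that finish or alter a charged tRNA were not called in either direction by limma or by voom, and 1 of them, Sepsecs, was higher at an unadjusted p under 0.05. By limma, 4216 of all 10943 tested genes had such a p, in either direction. In 3 of the 43 genes, Gatc and Sepsecs among them, every db/db sample lay above every lean sample in FPKM, as in 16.9% of all genes, and in 1 (Qars) every db/db sample lay below, as in 11.6%. In normalized fragments db/db lay wholly above lean in 5, Iars2, Nars2, Gatc and Sepsecs among them, against 18.2% of all genes, and wholly below in 2 (Aars and Vars2), against 11.9%. Sepsecs makes selenocysteine on its tRNA, the last step before selenoproteins such as the liver's selenoprotein P can be translated. It had 12.4, 12.5, 10.7 and 11.9 FPKM in db/db, against 10.4, 9.72, 9.67 and 9.64 FPKM in lean (log2 difference 0.24, SE 0.099, limma adjusted p = 0.102). Pstk, the kinase of the preceding step, had 7.72 ± 1.12 FPKM in db/db and 9.72 ± 1.59 FPKM in lean (log2 difference -0.29, limma adjusted p = 0.151). The table gives Pstk 1 locus together with 32 other genes, so its level is uncertain.

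Gatc and Qrsl1 encode subunits of the mitochondrial amidotransferase that turns glutamyl-tRNA into glutaminyl-tRNA. Gatc had 14.3, 13.9, 15.2 and 13.9 FPKM in db/db, against 10.8, 13.7, 13.1 and 12.3 FPKM in lean (log2 difference 0.19, SE 0.11, limma adjusted p = 0.213). Qrsl1 had 3.47 ± 0.459 FPKM in db/db and 2.77 ± 0.655 FPKM in lean (log2 difference 0.26, limma adjusted p = 0.227). Ears2, the synthetase that supplies their glutamyl-tRNA, had 4.07 ± 0.227 FPKM in db/db and 3.57 ± 0.741 FPKM in lean. Mtfmt, which formylates the initiator methionyl-tRNA of mitochondria, had 2.60 ± 0.578 FPKM in db/db and 3.57 ± 0.995 FPKM in lean (log2 difference -0.33, limma adjusted p = 0.182).

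The calls differed between limma on FPKM and voom on the estimated fragments. With voom 4 of 43 rose, Lars, Iars2 and Nars2 among them (against 17.7% of all genes), and 0 of 43 fell (against 11.4% of all genes). Between these fits on all 8 samples, Qars and Vars2 were called only from FPKM, and Lars, Iars2 and Nars2 only from fragments. Lars lay near the threshold in both (limma adjusted p = 0.0607, voom adjusted p = 0.0359), and limma on FPKM called it without lean 4. The ratio of normalized fragments to FPKM grows with the transcript length by which the authors divided, and should be the same in every sample if that length is fixed. It was the same to within 1% across the 8 samples in 14 of 43 genes (32.6%, against 25.6% of all genes) and varied over 1.2-fold in 16 (37.2%, against 31.7%). The fragments of Qars per FPKM averaged 33.9 in db/db and 26.6 in lean. For Vars2 they averaged 49.3 in db/db and 39.0 in lean, for Iars2 79.6 in db/db and 68.6 in lean, for Nars2 46.9 in db/db and 39.1 in lean, and for Mars 22.8 in db/db and 17.8 in lean. Lars and Aars varied by less, with averages of 64.3 in db/db and 64.5 in lean for Lars, and of 95.8 in db/db and 96.5 in lean for Aars. The cause of the unequal ratios was not tested.

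**Figure D3:**
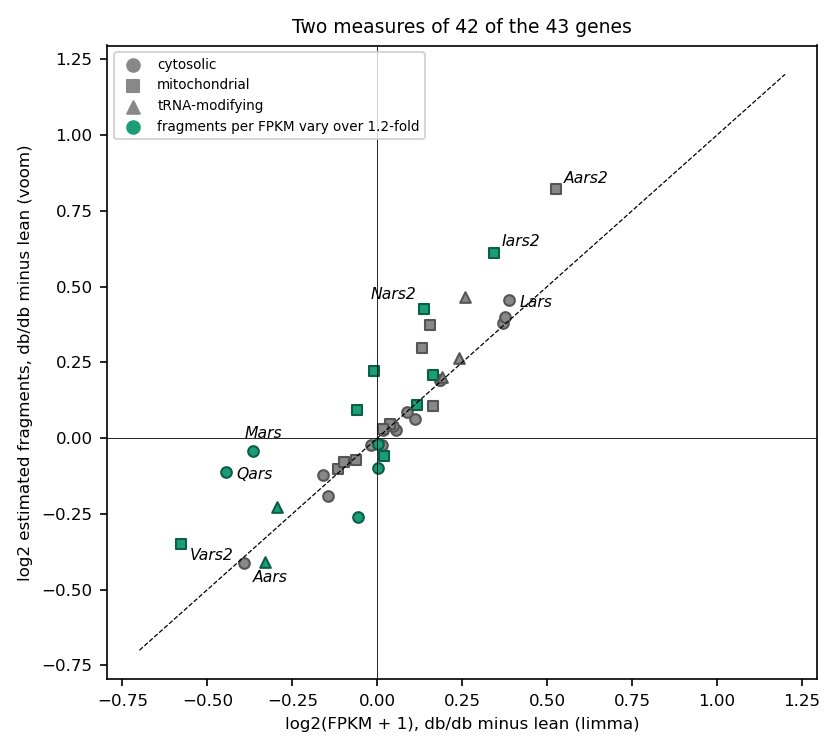
Log2 difference of 42 of the 43 genes between db/db and lean (db/db minus lean), from FPKM with limma (x axis) and from estimated fragments with voom (y axis). The dashed line marks equal values, and green points have a ratio of fragments to FPKM that varied over 1.2-fold across samples. Qars, Vars2, Mars, Iars2 and Nars2 lie above the line.

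Per length, cytosolic synthetase transcripts were more abundant than mitochondrial ones. Mean FPKM over the 8 samples had a median of 18.4 among cytosolic synthetases, from 5.44 for Iars to 37.7 for Nars. Among mitochondrial synthetases the median was 5.91, from 0.679 for Mars2 to 18.4 for Fars2. Summed FPKM of the cytosolic set was 405.7, 382.2, 348.5 and 387.6 in db/db samples, against 367.6, 349.3, 400.0 and 426.1 in lean samples, with overlapping ranges. Summed FPKM of the mitochondrial set was 134.5, 134.0, 131.9 and 131.8 in db/db, against 133.3, 119.7, 127.1 and 116.4 in lean. Only lean 1 reached the db/db range. In summed normalized fragments the mitochondrial set lay at 5636 to 5975 in db/db, above 4875 to 5314 in lean. Without Iars2 they lay at 4550 to 4691 in db/db, against 4145 to 4560 in lean, and overlapped. Of that difference of 720.5 between the means, Iars2 made up 54.9% and Nars2 12.4%.

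**Figure D4:**
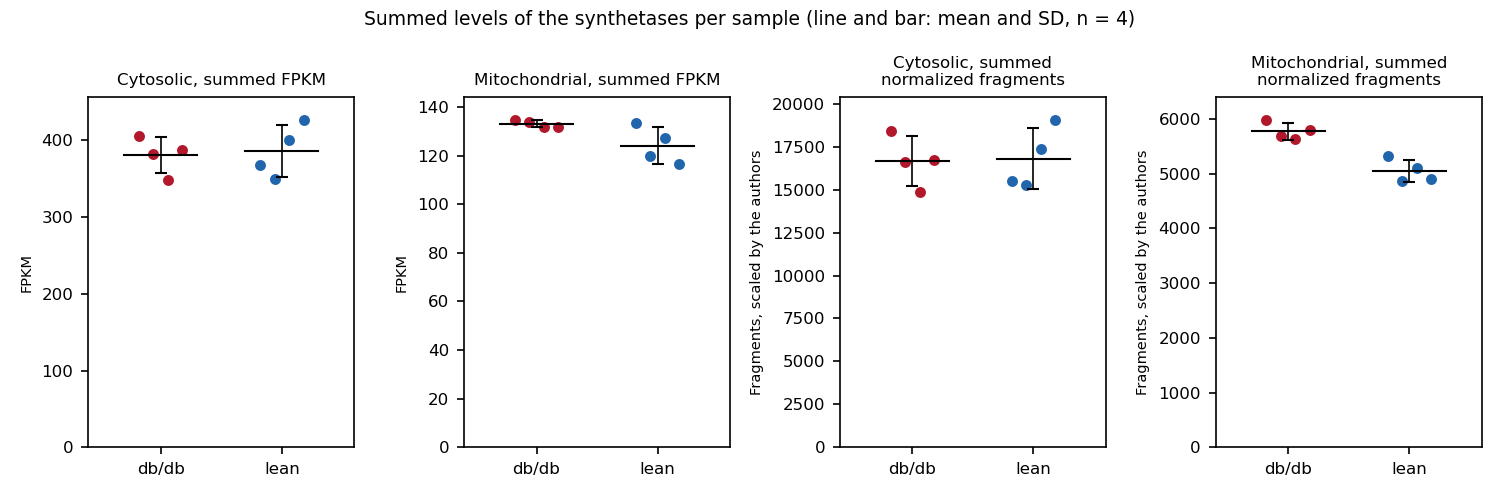
Summed FPKM and summed normalized fragments (y axes) of the 20 cytosolic and the 18 mitochondrial synthetases in each db/db and lean sample. Points are samples 1 to 4 from left to right, the line is the mean and the bar the SD (n = 4). The groups are apart in the summed fragments of the mitochondrial set (5636 to 5975 in db/db, 4875 to 5314 in lean), and overlap there once Iars2 is left out.

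Ratios within each library were taken where the table holds 1 cytosolic and 1 mitochondrial synthetase gene for an amino acid, Tarsl2 aside. This left out phenylalanine, whose cytosolic enzyme has subunits from Farsa and Farsb, and gave 14 amino acids. The cytosolic gene had the higher FPKM in all 8 samples for 10 of them and the lower in all 8 for isoleucine and leucine. The ratio of Aars to Aars2 averaged 10.5 in db/db, with a range of 6.93 to 14.4, and 30.3 in lean, with a range of 15.3 to 69.6. The highest ratio is that of lean 3, without which the lean mean was 17.2. The ratio of Mars to Mars2 averaged 38.4 in db/db, with a range of 29.8 to 44.6, and 66.4 in lean, with a range of 53.3 to 82.2. These are the 2 amino acids whose groups did not overlap in FPKM, and both ratios have a denominator on few fragments. In normalized fragments the groups were again apart for Aars over Aars2, with 12.2 to 24.7 in db/db, against 26.5 to 121.5 in lean. For Mars over Mars2 they overlapped there, with 15.3 to 19.5 in db/db, against 19.3 to 35.7 in lean. The other 12 ratios overlapped between the groups in FPKM. In normalized fragments some of these 12 were apart, all with db/db below lean, Iars over Iars2 and Nars over Nars2 among them. Iars over Iars2 had 0.326 to 0.359 in db/db, against 0.486 to 0.627 in lean. Nars over Nars2 had 4.06 to 5.24 in db/db, against 5.51 to 7.68 in lean.

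The element that C/EBP and ATF4 dimers are known to bind was searched for in the promoters of the 43 genes, since several synthetases are textbook ATF4 targets. Promoters were RefSeq windows of build GRCm38.p6 from 250 bases before to 50 bases after the start site, found for 32 of the 43 genes, and the letters searched were TGATGNAA on both strands. They occurred in 5 of the 32 (15.6%), against 4.51% of all genes with a promoter. All 5 were cytosolic synthetases, of 13 with a promoter, and 0 of 15 mitochondrial synthetases and 0 of 4 tRNA-modifying genes held a match. Matches lay 112 bases before and 9 bases after the start of Aars, 30 bases before that of Gars, 7 bases after that of Iars, 15 bases before that of Tars and 3 bases after that of Yars. Aars charges alanine, Gars glycine, Iars isoleucine, Tars threonine and Yars tyrosine. A match is a run of letters, not a shown binding site. The matches are printed below in the direction of the gene, with the matching letters in capitals and cut at most 20 bases past the start, so that their spacing and flanks can be compared.
Aars, chr8:111033700-111033767, plus strand: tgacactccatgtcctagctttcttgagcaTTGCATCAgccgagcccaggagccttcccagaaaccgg
Aars, chr8:111033821-111033862, plus strand: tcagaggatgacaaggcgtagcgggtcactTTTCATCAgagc
Gars, chr6:55037941-55038008, plus strand: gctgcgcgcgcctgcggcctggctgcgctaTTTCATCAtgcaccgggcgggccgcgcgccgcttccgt
Iars, chr13:49682107-49682150, plus strand: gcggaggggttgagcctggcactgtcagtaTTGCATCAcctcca
Tars, chr15:11399638-11399703, minus strand: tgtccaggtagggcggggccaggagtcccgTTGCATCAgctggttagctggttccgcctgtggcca
Yars, chr4:129189876-129189923, plus strand: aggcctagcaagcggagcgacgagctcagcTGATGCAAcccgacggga

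None of these 5 genes was called by limma or voom. Their log2 differences in FPKM were -0.39 for Aars, 0.045 for Gars, 0.014 for Iars, 0.086 for Tars and 0.0011 for Yars, with limma adjusted p from 0.0723 to 0.996. Gars had 15.2 ± 1.29 FPKM in db/db and 14.7 ± 1.33 FPKM in lean, Iars 5.48 ± 1.10 FPKM in db/db and 5.39 ± 0.760 FPKM in lean, and Yars 9.61 ± 1.06 FPKM in db/db and 9.64 ± 1.47 FPKM in lean (SD, n = 4 each). Yars shares its locus with C77080.

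Atf4 itself fell. It had 50.9, 49.95, 45.8 and 47.9 FPKM in db/db, against 61.9, 64.3, 92.0 and 77.6 FPKM in lean, with every db/db sample below every lean sample (log2 difference -0.58, SE 0.13, limma adjusted p = 0.0083). Atf4 was called in all 20 alternatives. These are RNA levels, and ATF4 protein was not measured here. Eif2ak4, which encodes the GCN2 kinase that senses uncharged tRNA, had 1.26, 2.05, 1.44 and 1.26 FPKM in db/db, against 1.73, 1.08, 1.68 and 1.10 FPKM in lean (log2 difference 0.063, limma adjusted p = 0.793). Of 11 genes of amino acid sensing and eIF2 phosphorylation tested, 2 fell, Atf4 and Ppp1r15a, and 0 rose, by limma and by voom. The shares of all tested genes called lower were 10.9% by limma and 11.4% by voom. At an unadjusted p under 0.05 in limma, 3 were lower, the other being Gcn1l1 (log2 difference -0.42, limma adjusted p = 0.0826), and 0 higher. Of all 10943 tested genes, 4216 had such a p, in either direction. Ppp1r15a, which directs a phosphatase to eIF2, had 7.43, 5.11, 4.45 and 6.73 FPKM in db/db, against 11.03, 9.87, 24.7 and 12.6 FPKM in lean (log2 difference -1.10, limma adjusted p = 0.0096). With voom its log2 difference was smaller, at -0.64 (adjusted p = 0.0126). Ppp1r15a shares its locus with other rows. Of 32 ATF4 target genes outside the pathway, 21 were tested, 6 rose (Gpt2, Vldlr, Atf5, Gdf15, Cth and Xpot) and 2 fell, by limma and by voom. Over all tested genes limma called 15.5% higher and 10.9% lower. Those that fell were Eif4ebp1, a translation inhibitor with 27.7, 23.6, 27.5 and 28.6 FPKM in db/db, against 51.6, 51.5, 62.4 and 57.6 FPKM in lean (log2 difference -1.03, limma adjusted p = 7.45e-05), and Asns, asparagine synthetase, with 0.239, 0, 0.803 and 0.120 FPKM in db/db, against 3.16, 3.34, 1.10 and 2.76 FPKM in lean. Gpt2, an alanine transaminase, had 182.2 to 201.0 FPKM in db/db and 99.4 to 127.4 FPKM in lean (log2 difference 0.82, limma adjusted p = 0.00033). Vldlr, a lipoprotein receptor at a shared locus, had 0.695 to 2.59 FPKM in db/db and 0.126 to 0.186 FPKM in lean (limma adjusted p = 0.0015). Vldlr passed the filter through the db/db samples alone, so it had to differ. Asns reached the filter's minimum in every lean sample, which was enough to pass, and in 1 db/db sample. Like Vldlr, it was thus admitted by the group in which it was higher. Normalized fragments of Asns were few, at 7.65, 0, 8.22 and 3.87 in db/db, against 67.3, 38.9, 26.8 and 52.4 in lean. Both genes stay in the counts of ATF4 targets above.

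Charged tRNAs are carried to the cytosolic ribosome by eEF1A, and the other subunits of the EF1 complex reload it with GTP. All 4 genes of this complex fell by limma, and 3 of them with voom, against 10.9% and 11.4% of all genes. Eef1b2 had 166.5, 168.8, 182.8 and 209.6 FPKM in db/db, against 297.4, 265.5, 319.5 and 311.9 FPKM in lean (log2 difference -0.71, SE 0.11, limma adjusted p = 0.00096). Eef1d had 90.8 to 106.1 FPKM in db/db and 139.6 to 170.1 FPKM in lean (log2 difference -0.58, limma adjusted p = 0.0021), and Eef1g had 64.6 to 79.0 FPKM in db/db and 95.8 to 116.5 FPKM in lean (log2 difference -0.50, limma adjusted p = 0.0065). These 3 genes were called in all 20 alternatives. Eef1a1, whose locus is shared by 9 rows, had a log2 difference of -0.39 (limma adjusted p = 0.0339) and was called in 11 of 20 alternatives. Voom did not call it (adjusted p = 0.0651), nor did limma without db/db 2 or 3 (limma adjusted p = 0.0811 and 0.0761) or lean 1, 3 or 4 (limma adjusted p = 0.1004, 0.0568 and 0.0828). Vars, the valyl-tRNA synthetase that is bound to the EF1 complex in animal cells, had 5.73 ± 0.600 FPKM in db/db and 5.72 ± 0.378 FPKM in lean (limma adjusted p = 0.995). The 3 scaffolds of the multisynthetase complex, Aimp1, Aimp2 and Eef1e1, gave 0 calls by limma, by voom or at an unadjusted p under 0.05, with log2 differences of 0.016, -0.27 and -0.047.

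In mitochondria, 3 of 9 elongation and initiation factors rose and 0 fell, by limma and by voom, where limma called 15.5% of all tested genes higher and 10.9% lower. Voom called 17.7% of all tested genes higher and 11.4% lower. At an unadjusted p under 0.05 in limma, 5 of the 9 were higher and 0 lower, where 4216 of all 10943 tested genes passed in either direction. Gfm2, a factor for ribosome recycling, had 20.5, 15.9, 15.3 and 16.7 FPKM in db/db, against 10.8, 9.11, 11.9 and 11.1 FPKM in lean (log2 difference 0.62, SE 0.12, limma adjusted p = 0.0045). Mtif3, an initiation factor, had 26.5 to 34.2 FPKM in db/db and 18.4 to 22.2 FPKM in lean (log2 difference 0.51, limma adjusted p = 0.0065). Gfm1, the elongation factor that moves the ribosome along the message, had 41.1 to 58.7 FPKM in db/db and 27.1 to 37.2 FPKM in lean (log2 difference 0.50, limma adjusted p = 0.0226), and was not called without lean 2 (limma adjusted p = 0.0526) or lean 3 (limma adjusted p = 0.0522). All 3 share their loci with another row. Tufm, the mitochondrial counterpart of eEF1A, had 43.7 ± 1.66 FPKM in db/db and 42.6 ± 4.33 FPKM in lean (limma adjusted p = 0.798).

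Among 22 genes of tRNA maturation and export tested, 4 rose and 2 fell by limma, where 15.5% of all tested genes were called higher and 10.9% lower. By voom the same 4 rose, and the 2 that fell were Pop7 and Pop5. Rpp21, a subunit of RNase P that fell by limma (log2 difference -0.33, adjusted p = 0.0441), was not called by voom (adjusted p = 0.131) and was called in 9 of 20 alternatives, with adjusted p from 0.0254 to 0.131. Of the 8 fits that leave out a sample, only the one without lean 4 called it, and in the others its adjusted p was 0.0602 to 0.119. Elac2, an enzyme that trims the tRNA 3′ end (log2 difference 0.38, limma adjusted p = 0.0387), was called in 11 of 20, with adjusted p from 0.0322 to 0.105, and was lost on leaving out db/db 1, 2 or 3 or lean 1, 2 or 3 (adjusted p of 0.0520 to 0.105). Elac1, a related enzyme (log2 difference 0.42, limma adjusted p = 0.0193), was called in 17 of 19 and not without db/db 2 (adjusted p = 0.0583) or lean 1 (adjusted p = 0.0582). Hsd17b10, a subunit of mitochondrial RNase P, had 346.1 to 422.3 FPKM in db/db and 185.9 to 220.0 FPKM in lean (log2 difference 0.86, limma adjusted p = 0.00022). Xpot, the export receptor for tRNA and itself an ATF4 target, had 13.9 to 14.6 FPKM in db/db and 6.59 to 10.5 FPKM in lean (log2 difference 0.58, limma adjusted p = 0.0114). Pop7, a subunit of nuclear RNase P at a shared locus, had 2.74 to 4.20 FPKM in db/db and 5.42 to 6.55 FPKM in lean (log2 difference -0.70, limma adjusted p = 0.0033). Of 7 genes that hydrolyse mischarged or stalled tRNA products, 1 rose by limma, 3 rose with voom and 0 fell by either. The gene called by both was Dtd2, a deacylase that removes wrong-handed amino acids or wrongly charged alanine from tRNA, with 8.69 to 11.8 FPKM in db/db and 6.43 to 7.69 FPKM in lean (log2 difference 0.50, limma adjusted p = 0.0106). At an unadjusted p under 0.05 in limma, 3 of the 7 were higher and 0 lower, where 4216 of all 10943 tested genes passed in either direction. Voom called 17.7% of all tested genes higher and 11.4% lower. Of 5 genes of selenocysteine use outside synthesis on the tRNA, 0 were called by limma, 0 had an unadjusted p under 0.05, and 1, Sephs1, fell with voom (log2 difference -0.39, adjusted p = 0.0155). These lists were chosen with earlier results of the same libraries known.

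**Figure D5:**
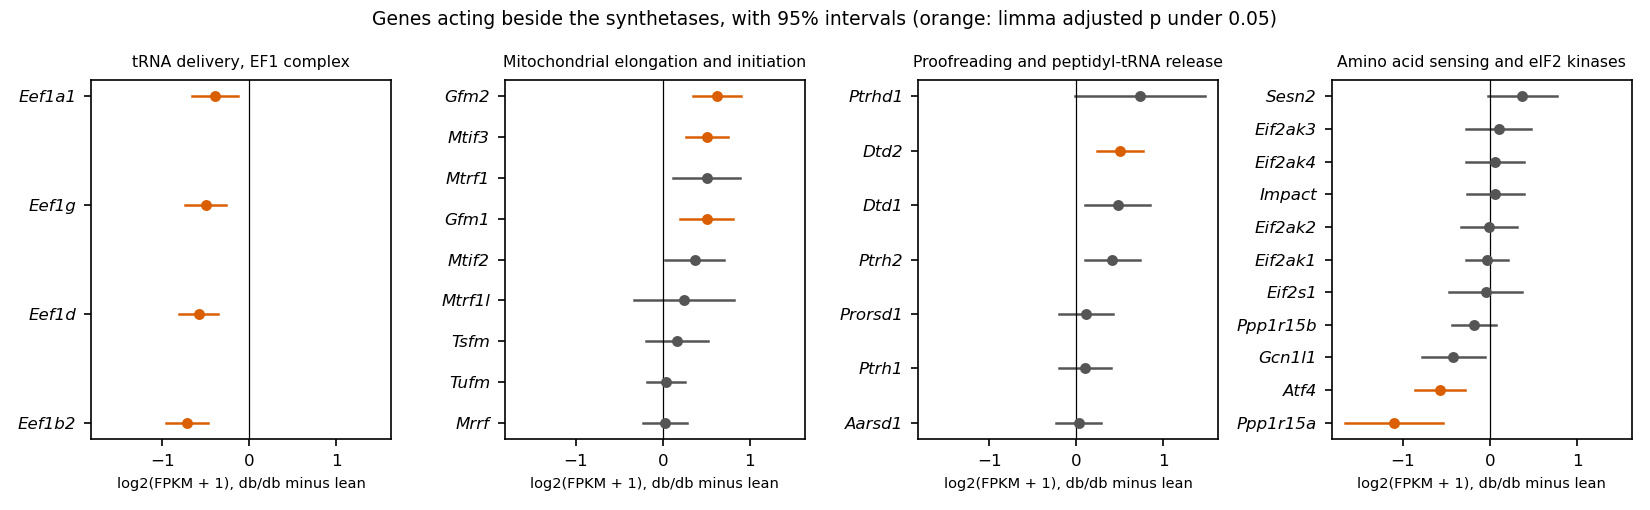
Difference in log2(FPKM + 1) between db/db and lean liver (x axis, db/db minus lean) for genes that act beside the synthetases, with 95% intervals from limma, n = 4 samples a group. Orange marks an adjusted p under 0.05. All 4 EF1 complex genes lie left of 0, and the 3 called mitochondrial factors lie right of 0.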

How the data were processed

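Per the labels' protocols, total RNA from liver was depleted of ribosomal RNA and made into stranded libraries. The submitters' processing notes name the build mm10 and the tools Cuffdiff, Cufflinks, HISAT2 2.0.4 and cutadapt 1.9.3, without their roles. The deposited table gave FPKM per gene and sample, per the file headers, and the transcript length that the authors used is not stated there. A further set of deposited columns is headed counts, but holds a normalized signal: estimated fragments divided by a size factor for each library. Of its low values 91.3 to 92.0% were whole multiples of the library's step, within 0.05 of a step, so the columns were not used as raw counts. The estimated fragments given to voom are these values divided by the step, and are not raw counts either. Many rows share a locus with another gene (5877 of 22564), among them 10 of the 43 genes: Farsb, Hars, Hars2, Mars, Yars, Cars2, Ears2, Iars2, Tarsl2 and Pstk. Their levels are uncertain.

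Rows were summed by symbol into 22481 genes. Genes with at least 0.5 FPKM in at least 4 of 8 samples (10943) entered limma 3.58.1 (R 4.3.3) on log2(FPKM + 1), db/db minus lean, 2-sided, with a mean trend and Benjamini-Hochberg adjustment over all tested genes at 0.05. As alternatives, voom was run on the estimated fragments, along with other pseudocounts, filters and scalings, library weights, a replicate block and leaving out each sample. The same limma fit on the log2 signal was added after seeing the data. The scripts were tested on simulated data.

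The 43 genes, the companion lists and the markers were chosen with earlier results of these data known. Values in every sample are given for called genes, for the 5 synthetases with the highest mean FPKM and for genes whose groups do not overlap in FPKM. For each companion list, values by sample or their range are given for up to 3 called genes with the smallest adjusted p, with Atf4 and Eif2ak4 always named. Other genes with values were named after their values were seen. For 1 of the 43 genes the results are not reported here. It stays in the counts, medians and sums. Promoter sequences are from RefSeq (GRCm38.p6, the assembly of mm10), of which 11 of the 43 genes had no entry in the table used.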

Additional observations from a re-analysis of the deposited data

Results flagged for a closer look

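In 6 of the 86 groups of 4 samples (43 genes in 2 groups) a single sample stood apart from the other 3, with a gap to its neighbour that, as a share of the group's whole range, passed Dixon's 95% critical value. Chance alone flags about 1 group in 20. Iars, which charges isoleucine, had 7.12 FPKM in db/db 1, above 4.77 to 5.15 FPKM in db/db 2, 3 and 4. Sars, which charges serine, had 17.95 FPKM in db/db 3, below the 21.8 to 22.3 FPKM of the other db/db samples. Yars, which charges tyrosine, had 11.2 FPKM in db/db 2, above the 9.02 to 9.21 FPKM of the others. In lean liver, Farsb had 14.8 FPKM in lean 4, above 10.9 to 11.3 FPKM in the others, and Tars had 46.0 FPKM in lean 4, above 28.6 to 30.9 FPKM. Sepsecs had 10.4 FPKM in lean 1, above 9.64 to 9.72 FPKM in the others. None of these 6 genes was called between the groups. Without lean 4 Farsb was called (limma adjusted p = 0.0461).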

How the results depend on the processing

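With voom, and with limma on the log2 signal, 4 of the 43 genes were higher and 0 lower, with 1 cytosolic and 3 mitochondrial synthetases higher and 0 lower in both sets. Without a filter and with library weights, 1 of the 43 was lower and 0 of the mitochondrial set, as Vars2 lost its call. Median-ratio and upper-quartile scaling called 2 cytosolic synthetases lower, Aars in addition to Qars, and moved the median of all genes by -0.045 and -0.039. Leaving out single samples gave 1 to 4 genes higher and 0 to 2 lower. For the cytosolic set it gave 0 to 3 higher and 0 to 2 lower, and for the mitochondrial set 1 higher and 0 to 1 lower. The 4 higher came without lean 4, and the 0 lower without lean 1. Other pseudocounts, the stricter filter, a fit without a trend, the highest row per symbol, leaving out genes at shared loci and counting Tarsl2 as cytosolic kept these counts within 1.5-fold. The cause of these differences was not tested. Samples of the same number in both groups did not vary together (correlations of deviations -0.22, 0.029, 0.11 and -0.0093). With a replicate block all genes called numbered 2514, against 2892 without it, and the same 3 of the 43 were among them. Mars2, Pars2 and Aars2 rest on few fragments, so small differences in them were not detectable at this depth.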

Other observations

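Within each group, cytosolic synthetases often had their highest or lowest value in the same sample. In db/db liver, sample 1 was highest in 12 of 20 cytosolic synthetases, against 33.3% of all genes, and sample 3 was lowest in 12 of 20, against 31.8% of all genes. In the mitochondrial set db/db 1 was highest in 7 of 18 and db/db 3 lowest in 7 of 18. In lean liver, sample 4 held the highest FPKM of the lean samples in 12 of 20 cytosolic synthetases, against 24.3% of all genes tested, and in 4 of 18 mitochondrial synthetases (22.2%). These are counts in the same 8 libraries, noticed after the values were seen, and were not tested.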
